A study of Mus musculus with 3 samples.

Results

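Some binding sites of the transcription factor JunD lay close together in mouse induced regulatory T cells, in groups that stood apart from the densest groups of BACH2 sites. The JunD peak list of this cell type held 5237 peaks. JunD peaks separated by gaps of at most 10 kb were joined into 4084 regions, of which 107 held 4 or more peaks. Of these, 23 regions with 130 peaks were set aside because they met a BACH2 region of 5 or more peaks built the same way, of which the BACH2 list had 94. A further 3 regions with 24 peaks were set aside because they lay on chromosome 13 between 21800000 and 23900000. The remaining 81 clusters held 400 JunD peaks, or 7.64% of the list, and are described here. The clusters were thus chosen by the peak positions of both lists. The number, spacing and crowding of their JunD peaks are therefore descriptions and not findings.

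The cells came from wild-type C57BL/6 mice aged 8 to 12 weeks. Sorted CD4+ T cells of the spleen were cultured for 4 days on antibodies to CD3ε and CD28 in the presence of TGF-β, which turns conventional T cells into induced regulatory T (iTreg) cells. Chromatin immunoprecipitation followed by sequencing (ChIP-seq) gave 1 BACH2 and 1 JunD library, and the labels also list an input library that was not used here. The protocol names 2 JunD antibodies without saying which one gave the library. All groups shared strain, genotype, tissue and culture. With 1 library per factor there is no replicate error, and no difference below was tested against one. The depth of the libraries is unknown, because the peak lists hold no read counts. Peak positions hold no expression values, so the labelled cell type was not checked against its marker genes.

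JunD is a subunit of AP-1, a dimeric basic leucine zipper factor that acts downstream of the antigen receptor and co-receptors of T cells. BACH2 is a basic leucine zipper repressor that restrains effector programmes in T cells and favours regulatory T cells. Both recognise AP-1-like sequences, so they can meet at the same sites. Peaks are identified here by position in the mm9 build, counted from 1. The lists do not pair peaks with genes, and neither genes nor sequence of mm9 were used here, so no cluster is named after a gene.

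The 81 clusters were small. Of them, 39 held 4 JunD peaks, 24 held 5, 9 held 6 and 6 held 7, and single clusters held 8, 9 and 11. Their spans ranged from 4.73 to 39.0 kb, with a median of 14.3 kb (interquartile range 10.1 to 19.8 kb). Together they spanned 1298 kb, of which JunD peaks covered 26.7%. By median peak score, the threshold of 4 peaks was not a natural break. The 111 JunD regions of 3 peaks, just outside it, had a median span of 8.02 kb and a median peak score of 90.2. The 39 clusters of 4, just inside, had 12.6 kb and 91.5. BACH2 overlapped 51.1% of the peaks just outside and 41.0% of those just inside. Only the latter set had lost regions that met dense BACH2 regions.

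Clusters were found on 18 chromosomes. Chromosome 11 held 16 clusters and 78 of their peaks, which is 16.3% of its 478 JunD peaks. Chromosomes 1, 3 and 6 held 7 clusters each, and on chromosome 6 the members made up 14.6% of the JunD peaks. Chromosomes 18 and X held none. Clusters also neighboured each other. In 8 pairs, the second cluster began within 100 kb of the end of the first, on chromosomes 2, 6, 11 and 19.

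Within clusters, the gap from a JunD peak to the next was 2021 bp at the median over 319 gaps (interquartile range 434.5 to 4874 bp). Very short gaps were common. Of the 319 gaps, 59 were at most 200 bp and 84, or 26.3%, were at most 500 bp, against 14.9% of 706 gaps in regions of 2 or 3 JunD peaks. The clusters set aside for dense BACH2 regions were alike, with 27.1% of 107 gaps at most 500 bp and a median gap of 1903 bp. At least 1 gap of at most 500 bp occurred in 51 of the 81 clusters described here. Peaks this close can be parts of 1 broad stretch of signal that the caller divided, and the lists do not show whether they are. Merging JunD peaks up to 500 bp apart before joining left 50 clusters with 233 members.

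**Figure D1:**
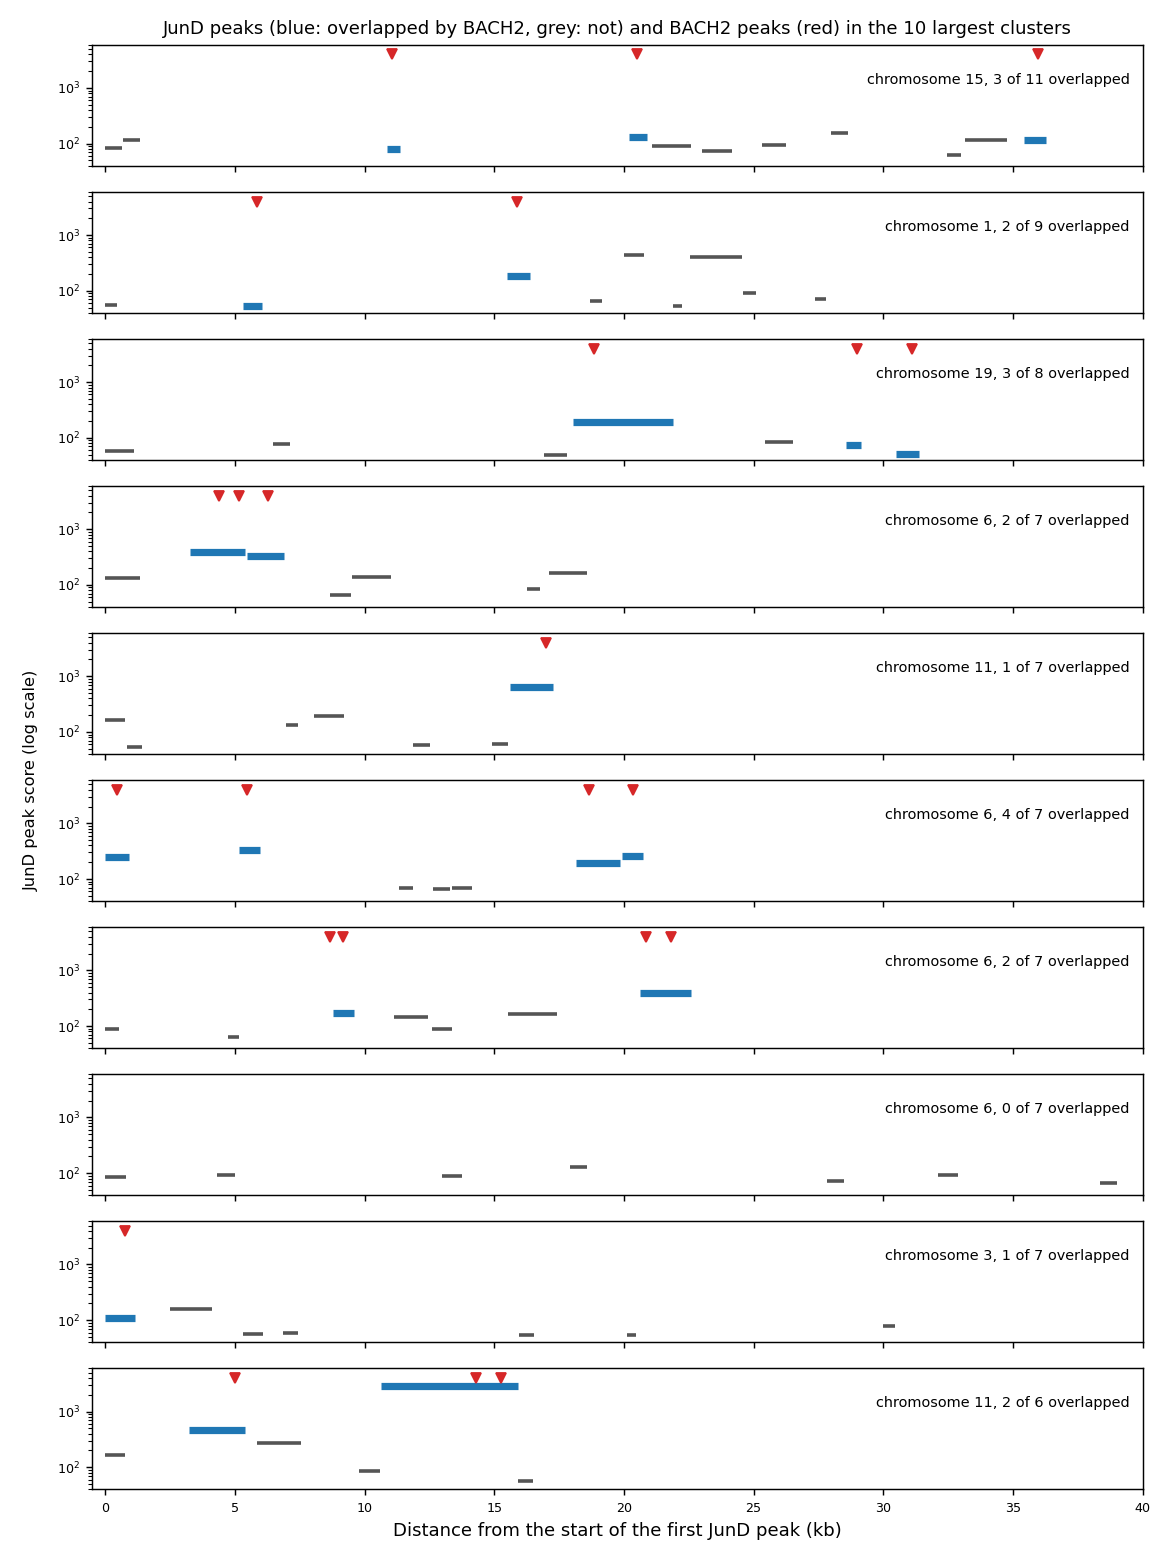
JunD peaks of the 10 clusters with the most members, drawn to scale by distance in kb from the start of the first JunD peak (x axis) against the authors' JunD score (y axis, log scale), with thick blue lines for peaks overlapped by BACH2, thin grey lines for the others, and red triangles at the middle of each BACH2 peak. Most JunD peaks in these clusters have no BACH2 peak over them, and the cluster with 0 of 7 overlapped has no red triangle at all.

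The largest cluster lay on chromosome 15 (66609700 to 66645992) and held 11 JunD peaks in 36.3 kb. Their scores, the authors' peak scores of unstated scale, ran from 63.8 to 155. A BACH2 peak overlapped 3 of them. The strongest of these BACH2 peaks, over the JunD peak at 66620581 to 66621075, had a fold enrichment of 10.6. The other 2 had 4.88 and 5.50. A run of 6 JunD peaks from 66630780 to 66644486 had no BACH2 peak over any of them.

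On chromosome 1 (60949967 to 60977742), 9 JunD peaks lay in 27.8 kb and differed widely in strength. The 2 strongest lay at 60969962 to 60970738 with a score of 441 and at 60972513 to 60974534 with 412. The median score of the cluster was 69.8. Neither strong peak met a BACH2 peak, and they were the strongest JunD peaks without BACH2 in all 81 clusters. The nearest BACH2 summits lay 4.50 and 7.67 kb from their centres. Both BACH2 peaks of this cluster had folds below the BACH2 list's median of 5.75, at 4.89 and 3.31. They ranked 4258 and 7441 of 9133 in that list. They lay over JunD peaks of score 53.7 and 184 to the left of the strong pair.

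The cluster of 8 peaks on chromosome 19 (11540245 to 11571630) held a JunD peak 3863 bp wide with a score of 195, which met a BACH2 peak of 4.96-fold with its summit 1142 bp from the JunD centre. The remaining 7 JunD peaks scored between 50.1 and 85.8. A second cluster began 30.4 kb further on (11602015 to 11606940). It packed 5 JunD peaks into 4.93 kb, 71.8% of which they covered, and no BACH2 peak fell in it.

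Chromosome 6 carried 2 neighbouring clusters of 7 peaks 33.3 kb apart. In the first (48625550 to 48644143), BACH2 overlapped 2 JunD peaks, which were the strongest of the cluster with scores of 395 and 324. The other 5 scored from 66.2 to 167. In the second (48677471 to 48698191), BACH2 overlapped 4 JunD peaks with scores of 244, 330, 191 and 264, and the 3 JunD peaks without BACH2 scored only 67.5 to 68.4. In both clusters each overlapped peak was thus stronger than each of the others. The BACH2 peak at 48697568 in the second cluster was itself strong, with a fold of 16.9 and rank 220 of 9133 in the BACH2 list.

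Another cluster of 7 on chromosome 6 (41482679 to 41505252) held JunD scores from 62.4 to 398. Its strongest peak, 1967 bp wide, was overlapped by 2 BACH2 peaks, the stronger of 4.83-fold. Another JunD peak of score 168 met a BACH2 peak of 2.72-fold, one of the weakest in the BACH2 list at rank 9095. On chromosome 11 (53576413 to 53593681), 7 JunD peaks ended in a peak of score 638, which was 4.72 times the cluster's median. It was the only one of the 7 with a BACH2 peak, which had a fold of 10.1. On chromosome 3 (30991981 to 31022447), 7 JunD peaks scored between 54.1 and 159, and BACH2 overlapped the first of them with a fold of 3.26.

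The strongest JunD peak of the whole list was a member. It lay on chromosome 11 (87568785 to 87574070), was 5286 bp wide and had a score of 2873, 13.2 times the median of its cluster of 6 (87558170 to 87574659). Its neighbours scored 163, 460, 271, 86.1 and 57.7. BACH2 overlapped the peaks of score 2873 and 460 with folds of 6.02 and 5.27, near the BACH2 list's median of 5.75. JunD peaks covered 68.8% of this cluster, and gaps between them were as short as 4 bp.

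The 10 members of highest score ranked between 1 and 53 in the JunD list. All 10 were overlapped by BACH2, where the share was 48.8% over all JunD peaks. In the strongest quintile of the JunD score it was 48.4% of 122 members and 70.5% of non-members. Those sets reach far below rank 53, and the share in non-members of like rank was not counted. A cluster on chromosome 12 held 3 of these 10 members and a cluster on chromosome 3 held 2. The remainder included a peak of 6467 bp on chromosome 2 (58008282 to 58014748) with a score of 765, the widest of all members. It met a BACH2 peak of 8.03-fold near its right end, 2710 bp from the centre. A peak on chromosome 8 (35882776 to 35885393, score 683) met a BACH2 peak of only 3.01-fold, and one on chromosome 9 (108960617 to 108962525, score 594) met a BACH2 peak of 5.85-fold.

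Every member was overlapped in 3 clusters. On chromosome 12 (55810770 to 55839925), 6 JunD peaks with scores of 652, 601, 157, 290, 568 and 443 each met a BACH2 peak. These BACH2 peaks had folds between 3.56 and 6.31, and their summits lay 21.5 to 108 bp from the JunD centres. On chromosome 3 (96041581 to 96052187), 4 JunD peaks 1451 to 2005 bp wide scored 445, 912, 662 and 523, with BACH2 folds from 3.35 to 5.94. The 24 JunD peaks set aside on chromosome 13 were also strong and wide, with a median score of 623 and a median width of 1579 bp. BACH2 overlapped 20 of them, with a median fold of 4.06. The third fully overlapped cluster was on chromosome 9 (32717707 to 32736824). Its 4 JunD peaks had moderate scores of 114, 292, 93.2 and 123, with BACH2 folds of 5.12, 9.61, 3.55 and 4.63. A cluster of 5 on chromosome 10 (22015588 to 22026788) and a cluster of 4 on chromosome 13 (6617876 to 6633303) had all but 1 member overlapped. The latter was taken by the sum of its JunD scores from 6 clusters with 3 of 4 members overlapped.

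At the other end, 15 clusters with 71 JunD peaks had no overlapped member, and 12 of them, with 58 JunD peaks, held no BACH2 peak anywhere in their span. The cluster of 7 on chromosome 6 (47689610 to 47728641) had the longest span of all, 39.0 kb. Its scores were 84.3, 90.7, 89.2, 131, 71.6, 93.6 and 66.4, and the nearest BACH2 summit lay 12.7 kb from its closest JunD centre. A cluster of 5 ended 53.9 kb before it (47613412 to 47635708), with scores of 150, 53.8, 94.1, 117 and 85.4 and a nearest BACH2 summit at 26.8 kb. These neighbours thus made a stretch of 115 kb with 12 JunD peaks, none of which met BACH2.

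The 12 JunD peaks of that stretch were alike in width, and several were at near-equal steps. Widths ran from 656 to 788 bp in the cluster of 7 and from 706 to 819 bp in the cluster of 5. Their coefficients of variation of width, 7.81% and 5.80%, were the lowest of the 81 clusters, whose median was 37.6%. In the cluster of 5, successive JunD centres were 4.31, 4.28, 4.37 and 8.60 kb apart. In the cluster of 7 they were 4.27, 8.69, 4.92, 9.88, 4.35 and 6.18 kb apart. Of these 10 steps, 5 lay within 0.1 kb of 4.3 kb and 2 within 0.1 kb of 8.6 kb, while the steps of 4.92, 9.88 and 6.18 kb were near neither. By the coefficient of variation of the steps, 37.3% in the cluster of 7 and 39.6% in the cluster of 5, the clusters ranked 13 and 14 of 81, so 12 clusters were more evenly spaced. These repeated steps were picked out after the values were seen. Whether they go with the sequence there was not tested.

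The other clusters named for lacking overlap had spans from 5.50 to 12.6 kb, below the median of all clusters. The clusters of 5 were taken by the sum of their JunD scores from 6 of that size without overlap, which also include the second cluster on chromosome 19. On chromosome 2 (121973072 to 121981804), 6 JunD peaks with scores of 180, 63.4, 128, 83.7, 145 and 91.8 covered 51.5% of 8.73 kb, and the nearest BACH2 summit was 8.73 kb away. On chromosome 9 (78323689 to 78329185), 5 JunD peaks scoring 52.8 to 167 covered 45.8% of 5.50 kb, with BACH2 no nearer than 46.4 kb. On chromosome 11 (5900241 to 5912803), 5 JunD peaks scored 305, 105, 63.7, 82.6 and 197 and covered 24.96% of 12.6 kb, close to the share over all clusters, and the nearest BACH2 summit lay 91.9 kb away. This was the cluster farthest from any BACH2 peak. The cluster of shortest span, on chromosome 1 (52222332 to 52227057), was of a mixed kind. BACH2 overlapped its strongest JunD peak of score 346, and the other 3 JunD peaks, of scores 64.1 to 99.6, were free of it.

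Across all 400 members, BACH2 overlapped 144, or 36.0% (Wilson 95% interval 31.4 to 40.8), by at least 1 bp. In the whole JunD list, 48.8% of peaks were overlapped. The share among members is partly set by the choice of clusters, because regions meeting dense BACH2 regions were removed. In the 130 JunD peaks set aside for that reason, 70% (61.6 to 77.2) were overlapped. With these put back, 44.3% (40.2 to 48.6) of 530 JunD peaks in clusters were overlapped, which narrows the gap to the whole list to 4.49 percentage points. The 24 JunD peaks set aside on chromosome 13, 83.3% (64.1 to 93.3) of them overlapped, stayed out of the 530 but are part of the whole list. Putting them back as well would narrow the gap further. With all regions kept, the share was 49% in regions of 4 JunD peaks, 39.3% in those of 5 and 47.9% in those of 6 or more. Intervals cover the counting of peaks only. Peaks of 1 cluster are neighbours in 1 library and not independent, so the intervals are too narrow.

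**Figure D2:**
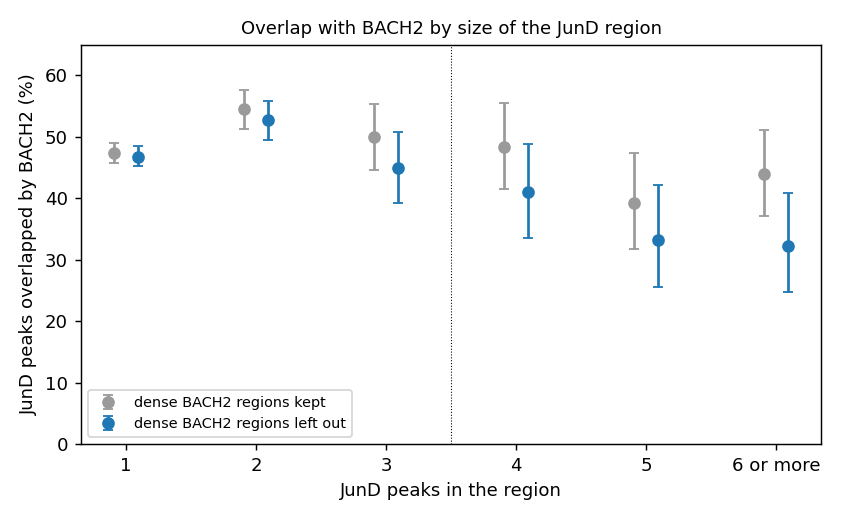
Share of JunD peaks overlapped by BACH2 (y axis, %) by the number of JunD peaks in the region (x axis), outside the chromosome 13 stretch, with Wilson 95% intervals; grey points keep regions that meet dense BACH2 regions and blue points leave them out. The blue points right of the dotted line are the 81 clusters and fall from 41.0% to 32.3%, while the grey points show a smaller fall.

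The same removal can be applied to JunD regions of every size. Outside dense BACH2 regions and the chromosome 13 stretch, 46.8% of single JunD peaks were overlapped, 52.7% in regions of 2 and 44.9% in regions of 3. In the clusters the share was 41.0% (33.6 to 48.9) for 4 peaks, 33.3% (25.5 to 42.2) for 5 and 32.3% (24.7 to 40.9) for 6 or more. The removal took away more of the large regions than of the small ones. It left 99.0% of single peaks but 66.7% of regions of 6 or more. With dense BACH2 regions kept, the shares were 47.4%, 54.5%, 50%, 48.4%, 39.3% and 44.0% in the same order, and the intervals for 6 or more (37.2 to 51.1) and for single peaks (45.7 to 49.0) overlapped. With the chromosome 13 stretch kept as well, the share was 47.9% (41.3 to 54.6) for 6 or more and 47.4% for single peaks.

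**Figure D3:**
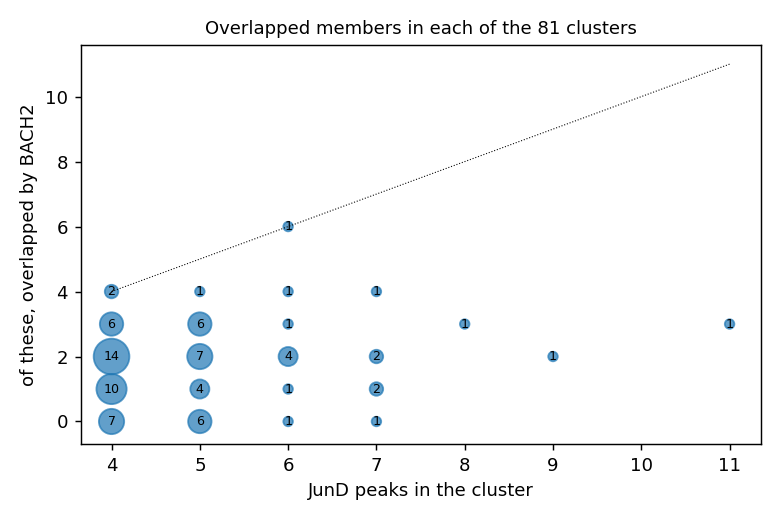
Number of JunD peaks in each of the 81 clusters (x axis) against the number of them overlapped by BACH2 (y axis); the area of a circle and the number in it give how many clusters share that position, and the dotted line marks clusters with every member overlapped. Most clusters hold between 0 and 3 overlapped peaks, a number that the removal of clusters meeting dense BACH2 regions limits, and 3 clusters lie on the line.

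The number of overlapped members per cluster is limited by the choice of clusters at any size, because a cluster that met 1 BACH2 region of 5 or more peaks was removed. A cluster with 5 or more BACH2 peaks could stay only where a gap over 10 kb divided them, as in the fully overlapped clusters on chromosomes 12 and 9 with 6 and 5 BACH2 peaks. Nothing is read from these counts beyond a description. BACH2 overlapped none in 15 clusters, 1 in 17, 2 in 28, 3 in 15, 4 in 5 and 6 in 1. The median share per cluster was 37.5%, with an interquartile range of 20 to 50%. More than 50% of members were overlapped in 18 clusters. The clusters of 11, 9 and 8 JunD peaks had 3, 2 and 3 overlapped peaks.

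Overlap went with JunD strength inside clusters, as it does across the list. The median score was 116 in the 144 overlapped members (interquartile range 75.1 to 251) and 86.4 in the 256 others (63.8 to 139). Outside the clusters the medians were 95.3 and 71.8. Overlapped members were also wider, with a median width of 822.5 bp against 656 bp, and outside the clusters the widths were 585 and 508 bp. Score and width were not told apart here. The strongest JunD peak of a cluster was overlapped in 43 of 81 clusters, or 53.1% (42.3 to 63.6), and the other members in 101 of 319 cases, or 31.7% (26.8 to 37.0). The strongest peak exceeded 3 times the cluster's median score in 17 clusters. Peaks at the ends of a cluster were overlapped in 68 of 162 cases, or 42.0% (34.6 to 49.7), and inner peaks in 76 of 238, or 31.9% (26.3 to 38.1), with overlapping intervals.

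Cluster members were stronger and wider than the JunD list as a whole. Their median score was 93.8 (interquartile range 66.5 to 161), against 81.6 over all JunD peaks. Members made up 122 of the 1047 peaks in the strongest quintile, which is 30.5% (26.2 to 35.2) of the members where the whole list has 20%. Such a peak was present in 63 of the 81 clusters. The median width of members was 713 bp against 553 bp. Of the members, 94 were wider than 1 kb, or 23.5% (19.6 to 27.9), against 9.26% of the list. Other groups of JunD peaks shared this. The clusters set aside for dense BACH2 regions were higher still, with a median score of 104.7, a median width of 788.5 bp, 39.2% in the strongest quintile and 32.3% over 1 kb. In regions of 2 and 3 JunD peaks, 22% and 25.5% of peaks were in the strongest quintile, against 16.4% of single peaks. These values come from the same library as the choice of clusters and are given as a description.

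**Figure D4:**
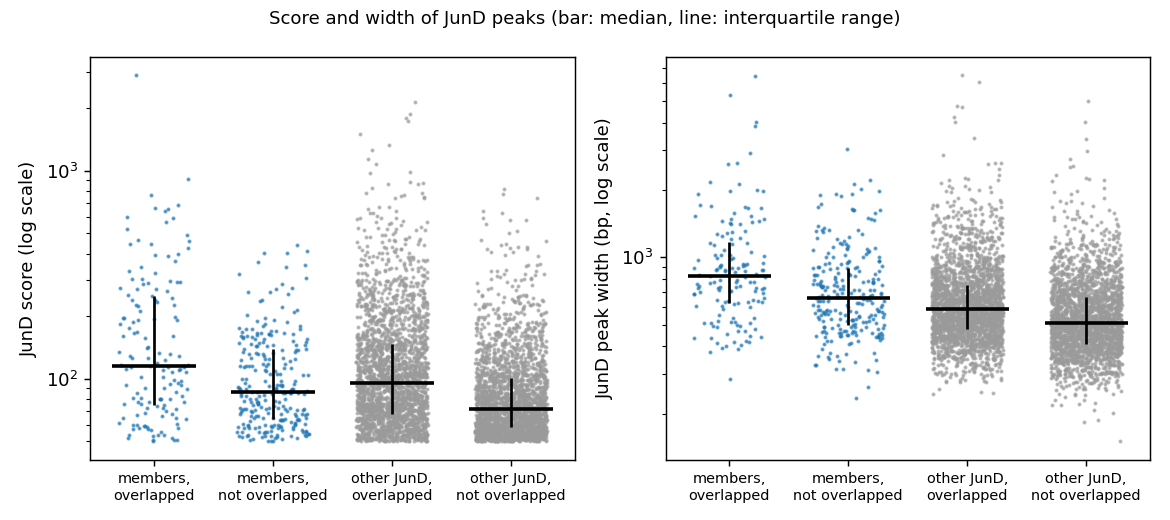
Score (left, log scale) and width in bp (right, log scale) of each JunD peak, for cluster members (blue) and all other JunD peaks (grey), split by overlap with BACH2; horizontal bars are medians and vertical lines interquartile ranges. Overlapped members have the highest medians, 116 for score and 822.5 bp for width, and members without BACH2 have scores up to 441.

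At a given JunD score the share among members was below that of single peaks in each quintile. With the clusters removed for dense BACH2 regions put back, but not those on chromosome 13, the intervals were apart only in the strongest quintile. In the strongest quintile of the JunD score, BACH2 overlapped 48.4% of 122 members (39.7 to 57.1), against 70.4% of 554 peaks that stood alone (66.5 to 74.0). In quintiles 2, 3 and 4 the shares were 38.7%, 30.7% and 23.1% in members and 54.6%, 46.9% and 38.6% in single peaks. In the weakest quintile they were 28.6% (18.9 to 40.7) and 32.4% (29.1 to 35.9), with overlapping intervals. When the clusters set aside for dense BACH2 regions were put back, the strongest quintile had 59.0% of 173 peaks overlapped (51.5 to 66.0). With the chromosome 13 clusters still left out, this was below the interval of single peaks. The other quintiles then had 49.5% (39.6 to 59.4), 35.4% (26.6 to 45.2), 29.4% (20.8 to 39.8) and 33.3% (23.9 to 44.4), and all 4 intervals overlapped those of single peaks. The weakest quintile was then slightly above the 32.4% of single peaks. Of the 24 peaks set aside on chromosome 13, 22 were in the strongest quintile and 83.3% were overlapped. Putting them back as well would raise the share of that quintile above 59.0%. The raised share was not counted, so whether its interval would still be apart from that of single peaks is not known. By width, the lowest share was in the third quintile of 510 to 613 bp, where 10 of 56 members (17.9%) and 51.9% of single peaks were overlapped. This too depended on the choice of clusters. With the clusters removed for dense BACH2 regions put back, the third quintile had 22 of 73 (30.1%) and the lowest share was in the second, with 26.1% of 69 peaks.

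**Figure D5:**
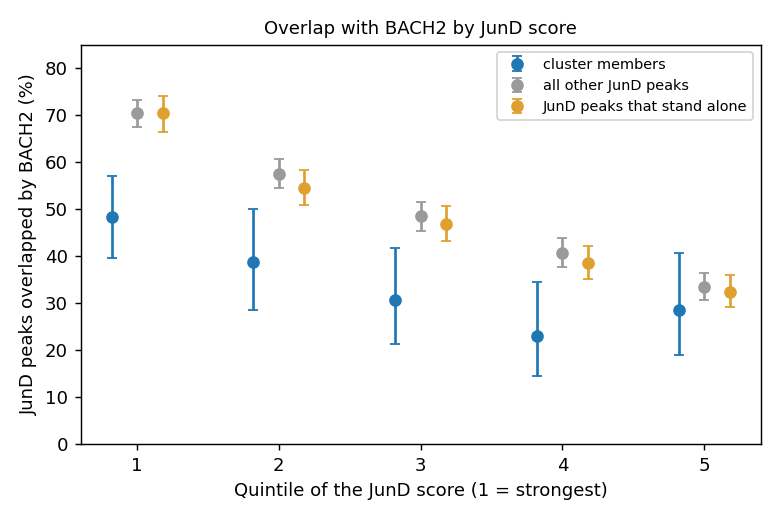
Share of JunD peaks overlapped by BACH2 (y axis, %) by quintile of the JunD score (x axis, 1 strongest), with Wilson 95% intervals, for cluster members (blue), all other JunD peaks (grey) and JunD peaks that stand alone (orange). In quintiles 1 to 4 the members, from which clusters meeting dense BACH2 regions were removed, lie below both other sets, from 48.4% down to 23.1%.

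Short gaps went with less overlap. Of the 151 members with a neighbour at most 500 bp away, BACH2 overlapped 25.8% (19.5 to 33.3), and of the 249 others 42.2% (36.2 to 48.4). The former were also stronger, with a median score of 110 against 90.7. After JunD peaks up to 500 bp apart were merged, 44.6% (38.4 to 51.1) of 233 members were overlapped, against 50% of the 5013 peaks of the merged list. The merging changed both the peaks and which regions counted as clusters, and the parts of the 2 in this value were not told apart. An example of closely spaced JunD peaks without BACH2 is a cluster on chromosome 6 (129130370 to 129137587), chosen after its values were seen. Its 4 JunD peaks covered 88.4% of 7.22 kb with scores from 124 to 346.

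BACH2 was nonetheless present around most clusters. Their spans held 177 BACH2 peaks, of which 151 lay over a member and 26 lay between members. This is 1.36 BACH2 peaks per 10 kb against 3.08 JunD peaks, a density that the choice of clusters sets, where the clusters set aside for dense BACH2 regions had 2.63 and 2.82. Among the 256 members without BACH2, the nearest BACH2 summit was 5.26 kb from the JunD centre at the median (interquartile range 2.77 to 11 kb), and within 10 kb for 71.9%, against 32.8% of all JunD peaks without BACH2. Of the 2424 other JunD peaks without BACH2, 28.7% had one within 10 kb. In regions of 2 and 3 JunD peaks this share was 55.6% and 60.1%, so closeness to BACH2 was shared by smaller groups, and in single peaks it was 17.4%. Joining at gaps of at most 10 kb puts members beside other JunD peaks, which can carry BACH2. The closeness is therefore partly set by the choice of clusters and is given as a description.

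BACH2 peaks in the clusters were of ordinary strength. The fold enrichment and the summit of BACH2 peaks played no part in the choice of clusters. The strongest BACH2 peak over each overlapped member had a median fold of 5.31 (interquartile range 4.16 to 7.55), against 6.15 (4.45 to 9.41) over other JunD peaks. The median −log10 q was 14.2 against 16.8. The clusters set aside for dense BACH2 regions had a median fold of 5.20, regions of 2 and 3 JunD peaks 5.85 and 6.00, and single peaks 6.35. The lower fold was thus shared by other large groups. Against the whole BACH2 list, the BACH2 peaks in the spans had a lower median fold (5.14 against 5.75) but a higher median −log10 q (13.7 against 11.8). The 26 BACH2 peaks between members had a median fold of 5.02, and the 151 over members 5.17. Of all 177, 38 (21.5%) belonged to the strongest quintile of the BACH2 list, which holds 20% of that list.

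The 5 members with the strongest BACH2 peaks had JunD scores from 53.3 to 391. On chromosome 7, a JunD peak of score 197 (29167496 to 29168437) met a BACH2 peak of 22.4-fold, rank 72 of the BACH2 list. On chromosome 8, a JunD peak of score 53.3 (123239038 to 123239652), close to the lowest score in the list of 50, met one of 19.3-fold. The others lay on chromosome 17 (8132205 to 8132972, JunD score 391, BACH2 13.9-fold), chromosome 7 (82941019 to 82941647, score 250, 21.2-fold) and chromosome 10 (79611321 to 79611732, score 129, 31.4-fold). The last had the highest BACH2 fold of any member, and its BACH2 summit lay 9.5 bp from the JunD centre.

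Overlapping summits and centres lay farther apart in clusters than in the rest of the list. In 151 pairs, summit and centre were 85.5 bp apart at the median (quartiles 35.3 and 250 bp), against 54 bp (23.6 and 118 bp) over the 2526 other pairs. It was at most 100 bp in 54.3% and 71.0% of pairs. The clusters set aside were alike or further in the same direction, with medians of 97.5 bp where dense BACH2 regions removed them and 293.5 bp on chromosome 13. Regions of 2 and 3 JunD peaks had 57 and 57.5 bp, so the distance was shared with other large groups and is not particular to these clusters. Overlapped members were wider, at a median of 822.5 bp against 585 bp, and a wider peak allows a larger distance. The part of width in this difference was not tested.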

How the data were processed

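The peak lists of 1 BACH2 and 1 JunD library were analysed. Per the submitters' processing notes, Bowtie 0.12.9 and the mm9 (NCBIM37) build were used. Details of the peak caller, its control and any pooling were not given in the sources used here. The BACH2 list the authors deposited gives each peak a fold enrichment ratio, a −log10 p, a −log10 q, a summit and an integer score that repeats the −log10 q. The JunD list the authors deposited gives each peak a start, an end and a score of unstated scale, and its peak names begin with MACS, a caller. These values only described or ranked peaks within their own list.

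Peaks of each list were joined at gaps of at most 10 kb. An overlap needed 1 bp. Where several BACH2 peaks met a JunD peak, that of highest −log10 q was used. Wilson 95% intervals cover counting only, the depth is unknown, and no test was run. The 10 clusters with the most members, the 5 with the highest overlapped share, the 5 largest without overlap, the shortest and the longest cluster, the 10 strongest members and the 5 strongest BACH2 partners were named. Ties in cluster size or share were broken by the sum of JunD scores. The members and lists were chosen with earlier results of these data known. Joining and overlap counting were tested on simulated data. The gene table at hand was of GRCm38, so the planned gene and motif descriptions were not run. Python 3.11.15, numpy 2.4.6, pandas 2.3.3, scipy 1.17.1 and matplotlib 3.10.9 were used.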

Additional observations from a re-analysis of the deposited data

How the results depend on the processing

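The share of members overlapped was below that of the whole JunD list under all 18 alternatives, by 4.49 to 18.8 percentage points, and ranged from 11.5% to 44.6%. Apart from the alternative that removed no cluster for BACH2, each still removed clusters for meeting BACH2 regions. The chromosome 13 clusters stayed out of the members throughout but are part of the whole list. With them counted as members, the gap of 4.49 points would be smaller. The lower share is thus partly set by the choice of clusters, and its recurrence is only a description. It was 30% when BACH2 regions of 4 or more peaks removed a cluster and 44.3% when none was removed for BACH2. It was 44.6% with JunD peaks within 500 bp merged, 11.5% when 50% of both peaks had to be covered, 20.5% for a BACH2 summit within 100 bp of the JunD centre and 21.8% for the stronger 50% of BACH2 peaks. With every peak set to 200 bp, chosen after seeing the data, it was 26.2% against 43.7% in the whole list. The other 11 alternatives stayed within the counting interval. The number of clusters and members was 50 and 247 with a gap of 5 kb, 173 and 676 with 3 or more JunD peaks, 42 and 244 with 5 or more, 50 and 233 after merging, and 28 and 124 for the stronger 50% of JunD peaks. The median score was 80.4 with members over 1 kb left out, chosen after seeing the data, and within its counting interval of 87.2 to 108 under the other 8 alternatives. Leaving out chromosome 3, 6 or 11, also chosen after seeing the data, gave 35.8%, 37.4% and 37.0% overlapped. No paired analysis was possible because there was 1 library of each factor. Weak sites that missed the threshold of either list could not be counted.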
